A study of Mus musculus with 6 samples.

Results

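The 42 genes described here encode the machinery that takes a cell into mitosis and segregates its chromosomes: mitotic kinases, the spindle checkpoint, the kinetochore, spindle motors and spindle assembly proteins. They were chosen by symbol as a functional list, and each was represented by the probe set that carries only its symbol and has the highest mean over all arrays. All 42 were measured, out of 19938 named genes on the array, and 41 of them had 1 probe set. Expression was measured in whole livers of E14.5 mouse fetuses on Affymetrix MoGene 1.0 ST arrays, 1 array for each of 6 independent embryos. Tmod3 encodes tropomodulin 3, a protein that caps actin filaments. The mutant group was 3 Tmod3-/- embryos (Tmod3 KO), labelled as anemic with a small fetal liver. They were compared with 3 Tmod3+/+ embryos (Tmod3 WT), labelled as normal. All 6 were of the C57BL/6J strain. Which part of Tmod3 is disrupted, and the sex of the embryos, are not given in the sources used here.

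Cells enter mitosis when Cdk1 with its cyclins, the Aurora kinases and Plk1 are activated. Kinetochores, built on the centromere, then capture spindle microtubules, and unattached kinetochores keep the spindle checkpoint on, which holds the anaphase-promoting complex (APC/C) inactive until every chromosome is attached. Most red cells of the fetus are made in the liver at this stage, where erythroblasts divide several times before they leave the cell cycle. Many of these genes are transcribed late in the cell cycle through a short promoter element, the cell cycle genes homology region (CHR), and through CCAAT boxes, which the factor NF-Y binds.

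The promoters of 5 of the genes, fixed by name, are shown. All 5 carry both elements and belong to genes whose values are given below. Each window runs 5′ to 3′ on the gene's strand from 250 bases before to 50 bases after the transcription start in RefSeq on GRCm38.p6. Capitals mark every match to TTTGAA, the CHR, and to CCAAT, each on either strand; no matches overlap in these windows. The windows are chr10:69352863-69353162 on the minus strand for Cdk1, chr7:122159185-122159484 on the plus strand for Plk1, chr2:172370521-172370820 on the minus strand for Aurka, chr4:118437294-118437593 on the minus strand for Cdc20 and chr5:30666636-30666935 on the plus strand for Cenpa.
Cdk1: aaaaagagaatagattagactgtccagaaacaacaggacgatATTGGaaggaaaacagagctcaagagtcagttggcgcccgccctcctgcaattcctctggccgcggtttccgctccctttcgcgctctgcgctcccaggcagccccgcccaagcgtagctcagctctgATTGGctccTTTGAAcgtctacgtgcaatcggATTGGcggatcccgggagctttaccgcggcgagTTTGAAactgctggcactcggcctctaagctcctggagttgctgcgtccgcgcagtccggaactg
Plk1: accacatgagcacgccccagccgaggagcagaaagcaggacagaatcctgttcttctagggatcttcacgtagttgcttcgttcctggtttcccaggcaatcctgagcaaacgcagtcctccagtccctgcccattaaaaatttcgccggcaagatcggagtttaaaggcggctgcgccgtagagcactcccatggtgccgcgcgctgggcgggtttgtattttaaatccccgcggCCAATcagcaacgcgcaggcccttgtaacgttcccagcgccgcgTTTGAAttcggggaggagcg
Aurka: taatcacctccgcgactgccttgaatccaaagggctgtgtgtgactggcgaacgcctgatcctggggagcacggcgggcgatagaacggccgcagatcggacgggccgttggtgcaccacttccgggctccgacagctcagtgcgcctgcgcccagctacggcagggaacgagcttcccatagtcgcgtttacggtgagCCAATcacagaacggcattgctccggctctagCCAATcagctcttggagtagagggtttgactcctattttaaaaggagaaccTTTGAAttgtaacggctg
Cdc20: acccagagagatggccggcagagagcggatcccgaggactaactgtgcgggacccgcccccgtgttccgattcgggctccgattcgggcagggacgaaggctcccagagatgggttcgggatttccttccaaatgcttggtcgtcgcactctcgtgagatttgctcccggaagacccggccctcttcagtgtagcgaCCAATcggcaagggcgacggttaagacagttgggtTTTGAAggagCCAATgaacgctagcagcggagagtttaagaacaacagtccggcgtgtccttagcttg
Cenpa: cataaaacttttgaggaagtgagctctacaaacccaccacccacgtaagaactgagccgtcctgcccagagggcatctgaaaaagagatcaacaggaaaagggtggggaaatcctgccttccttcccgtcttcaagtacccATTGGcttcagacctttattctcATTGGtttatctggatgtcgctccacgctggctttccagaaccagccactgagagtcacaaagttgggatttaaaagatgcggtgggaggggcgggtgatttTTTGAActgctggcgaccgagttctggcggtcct
In Cdk1 a CHR lay 15 to 10 bases before the start (-15 to -10) and another at -71 to -66, with 3 CCAAT boxes upstream of the start. In Cdc20 the CHR lay at -18 to -13, while in Plk1, Aurka and Cenpa it lay 31, 33 and 17 bases into the transcript. Promoter windows were found for 37 of the 42 genes, and those of Foxm1, Pbk, Spc24, Tpx2 and Zwilch were not. Some genes have several windows, and a gene was counted if any window held the match. A TTTGAA match was present in 23 of the 37 genes (62.2%), against 17.3% of all 15614 tested genes with a window. A CCAAT match was present in 27 (73%), against 41.7%. Both were present in the same window in 20 (54.1%), against 6.89%. These letters are a description of the windows and do not show that a factor binds there.

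Most of the mitotic genes had slightly lower values in Tmod3 KO liver, and 0 of the 42 passed the test. Their median log2 fold change (KO minus WT, on the deposited log2 scale) was -0.31, and 37 of the 42 lay below 0, while over all 19938 genes the median was 0.01 and 48.4% lay below 0. By limma, a moderated linear model fitted over all genes with Benjamini-Hochberg adjustment, the adjusted p of the 42 ranged from 0.317 to 0.974 against a threshold of 0.05. Over all genes 0.015% passed, and 0.0301% after the quantile normalization described below. At an unadjusted p under 0.05, 8 of the 42 (19%) were lower and 0 higher. The same held for 6.44% of all genes in the lower and 2.59% in the higher direction. The count of 8 depended on single arrays, and was 14 (33.3%) without WT replicate 1, 4 (9.52%) without KO replicate 3 and 2 (4.76%) without WT replicate 2. The share of all genes lower at that p moved as well, to 11.2%, 4.79% and 3.95%. In whole liver, fewer cells of a type and less RNA per cell cannot be told apart.

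Well expressed genes in general had higher values on WT replicates 2 and 3 than on the other 4 arrays. Of all genes, 2545 averaged 3 or more over the 6 arrays, and their mean was 4.73, 4.78 and 4.67 in KO replicates 1, 2 and 3 and 4.72, 5.09 and 5.10 in WT replicates 1, 2 and 3. WT replicate 1 lay among the KO arrays. Their median log2 fold change was -0.25, 80.6% lay below 0, and at an unadjusted p under 0.05, 26.6% were lower and 2.28% higher. Of these 2545 genes 0.118% passed the adjusted threshold as deposited and 0.196% after quantile normalization. Of the 42 mitotic genes, 26 reached that level. Their median was -0.34, all 26 lay below 0 and 8 of them (30.8%) were lower at that p, close to the share of genes of that level. These counts come from the fit over all genes. When limma was refitted on the 2545 genes alone, 5 of the 26 (19.2%) and 17.2% of the 2545 were lower at that p. After the 6 arrays were quantile normalized, which gives every array the same distribution, the median of the 42 genes was -0.16 and 32 lay below 0 (76.2%), against 52.4% of all genes and 57.6% of those averaging 3 or more. Then 2 of the 42 (4.76%), Mad2l1 and Cenpk, were lower at an unadjusted p under 0.05, against 4.66% of all genes. Among genes averaging 3 or more these were 7.69% of the 26 mitotic genes and 13.2% of all. None was higher, against 3.05% of all genes and 8.02% of those averaging 3 or more, and the smallest limma adjusted p among the 42 was 0.423.

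**Figure D1:**
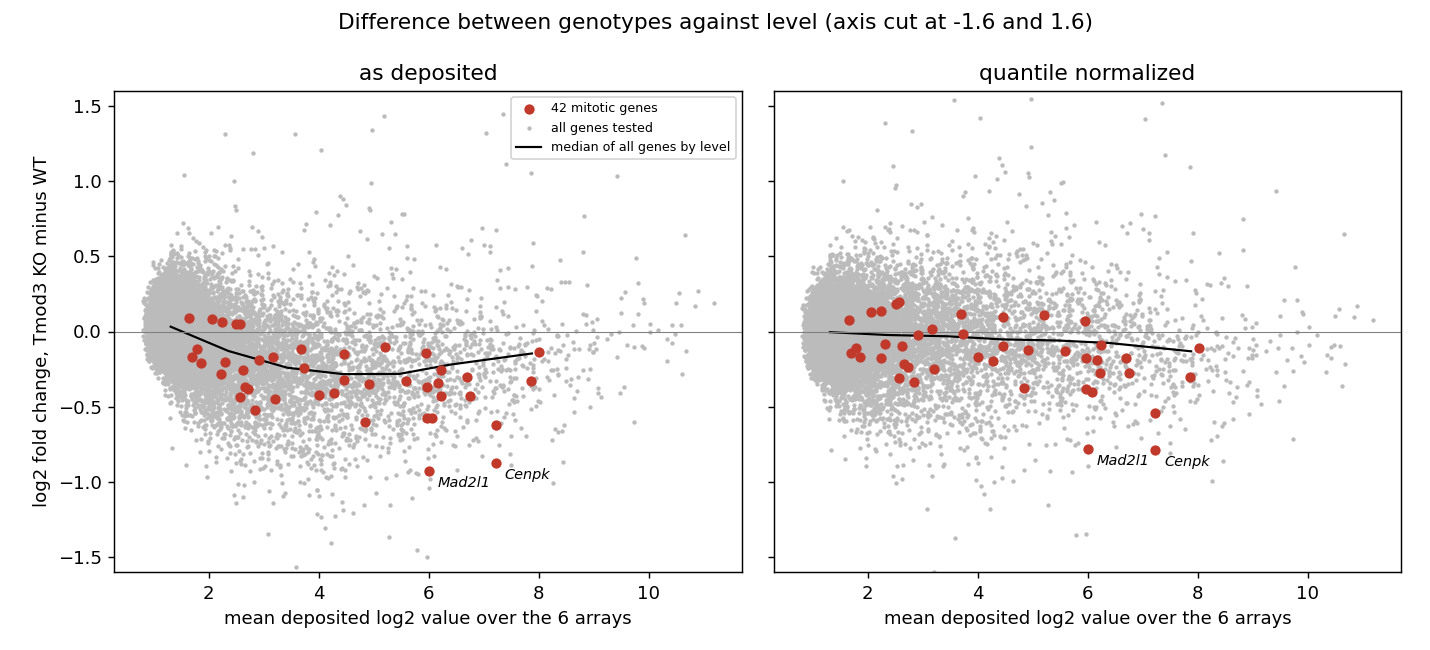
Log2 fold change (Tmod3 KO minus WT) against the mean deposited log2 value over the 6 arrays, as deposited (left) and after quantile normalization (right). Red points are the 42 mitotic genes, grey points all 19938 genes and the line the median of all genes by level; 9 genes lie beyond the axis in either panel. The line dips to -0.28 for genes of level 4 to 6 as deposited and lies nearer 0 after normalization, while Mad2l1 and Cenpk lie lowest among the red points in both panels.

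The mean over the 42 genes was 4.25, 4.22 and 4.01 in Tmod3 KO replicates 1, 2 and 3, and 4.31, 4.60 and 4.49 in Tmod3 WT replicates 1, 2 and 3. The KO arrays all lay below the WT arrays, but WT replicate 1 stood only slightly above KO replicate 1. After quantile normalization the values were 4.33, 4.24 and 4.12 in KO and 4.42, 4.46 and 4.29 in WT, and KO replicate 1 then lay above WT replicate 3. As deposited, KO replicate 3 was the lowest of the 6 arrays for 21 of the 42 genes and WT replicate 2 the highest for 20. WT replicate 1 was the lowest WT array for 27 genes. The same counts over all genes were not made. Over all genes averaging 3 or more, KO replicate 3 also had the lowest mean (4.67) and WT replicate 1 the lowest WT mean (4.72). WT replicates 2 and 3 had the highest means there (5.09 and 5.10). For single genes the groups rarely separated: in 4 of the 42 (9.52%) the 3 KO values all lay below the 3 WT values, against 7.1% of all genes. Among genes averaging 3 or more this held for 15.4% of the mitotic genes and 21.3% of all. The 4 were Cdk1, Aurka, Cenpk and Tacc3. No mitotic gene had all KO values above all WT values, against 6.14% of all genes and 2.2% of those averaging 3 or more. After quantile normalization only Mad2l1 of the 42 had all KO values lower (2.38%), against 7.54% of all genes. Among genes averaging 3 or more this was 3.85% of the mitotic genes, against 12.3% of all. None had all KO values higher, against 5.37% and 7.58%.

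**Figure D2:**
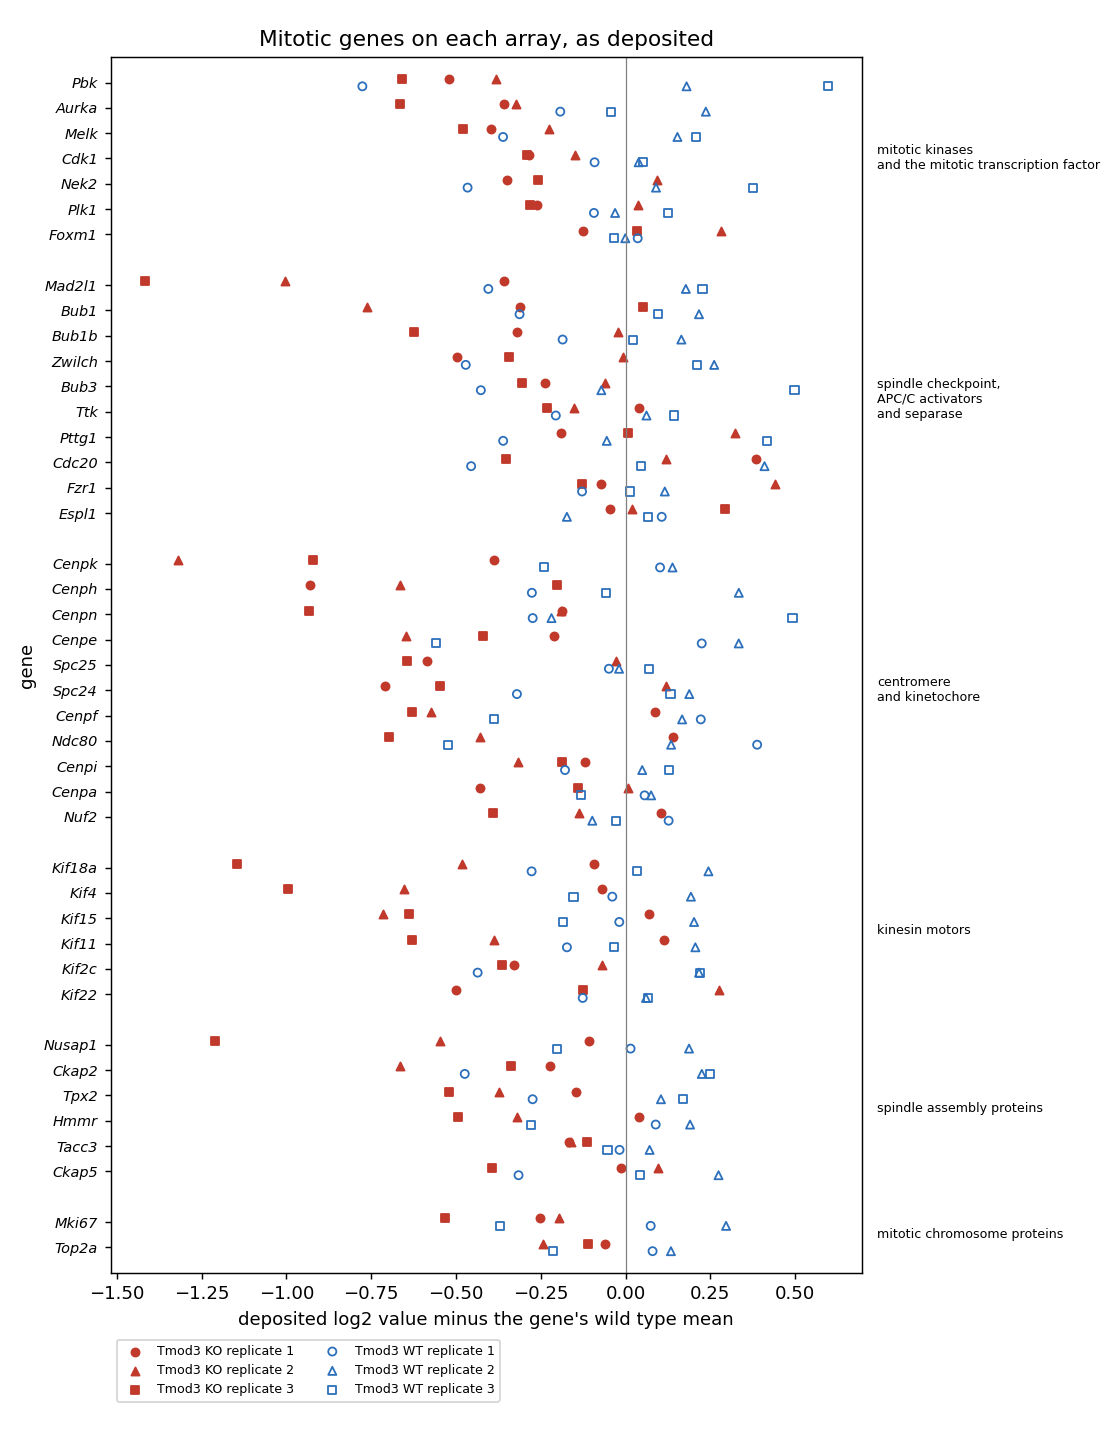
Deposited log2 value of each of the 42 mitotic genes on each array, minus the gene's Tmod3 WT mean, with genes grouped by role and ordered by fold change within a role. Filled red symbols are the 3 Tmod3 KO arrays and open blue symbols the 3 Tmod3 WT arrays, with 1 symbol shape per replicate number. Most rows overlap between groups, and the widest shifts to the left are those of Mad2l1 and Cenpk.

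Among the 7 mitotic kinases and their transcription factor, Cdk1 and Aurka had separate groups and none passed. Cdk1, the kinase that drives entry into mitosis, read 3.57, 3.71 and 3.56 in Tmod3 KO liver, against 3.76, 3.89 and 3.91 in Tmod3 WT liver. Aurka, the Aurora kinase of the spindle poles, read 3.07, 3.10 and 2.76 in KO, against 3.23, 3.66 and 3.38 in WT. Both genes had every KO array below every WT array, with means of 3.61 ± 0.08 in KO and 3.85 ± 0.08 in WT for Cdk1 and of 2.98 ± 0.19 in KO and 3.42 ± 0.22 in WT for Aurka (SD, n = 3 each). The log2 fold change was -0.24 (SE 0.10, limma adjusted p = 0.540) for Cdk1 and -0.45 (SE 0.15, limma adjusted p = 0.417) for Aurka. After quantile normalization the Cdk1 difference was -0.01, with a 95% interval from -0.26 to 0.23, and that of Aurka -0.25 (-0.55 to 0.05), and both groups overlapped.

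Plk1, the polo-like kinase that acts from mitotic entry to anaphase, read 2.99, 3.29 and 2.97 in KO and 3.16, 3.22 and 3.37 in WT. Melk, a kinase often used as a proliferation marker, read 2.44, 2.61 and 2.36 in KO and 2.48, 2.99 and 3.05 in WT. For both, a KO array lay among the WT arrays, and the log2 fold changes were -0.17 for Plk1 (95% interval -0.46 to 0.12) and -0.37 for Melk (-0.75 to 0.01). After quantile normalization the sign of Plk1 turned to 0.02 and Melk had -0.21. Foxm1, the transcription factor that drives genes of late cell cycle, had 2.09, 2.50 and 2.25 in KO and 2.25, 2.22 and 2.18 in WT. Its groups overlapped throughout, with a log2 fold change of 0.06 and a 95% interval from -0.22 to 0.35 (limma adjusted p = 0.930). Pbk, a kinase of dividing cells, had -0.52 and varied widely among WT arrays, from 2.32 in replicate 1 to 3.70 in replicate 3. Nek2, a centrosome kinase, had -0.17.

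The 10 genes of the spindle checkpoint, the APC/C activators and separase differed among themselves, and none passed. Mad2l1, which encodes the checkpoint protein MAD2 that sequesters the APC/C activator Cdc20, had the widest difference of the 42 genes as deposited. It read 6.11, 5.46 and 5.05 in Tmod3 KO liver, against 6.06, 6.64 and 6.69 in Tmod3 WT liver. KO replicate 1 lay just above WT replicate 1, and the other 2 KO arrays lay below every WT array. The mean was 5.54 ± 0.53 in KO and 6.47 ± 0.35 in WT (SD, n = 3 each), or 1.90-fold lower, with a log2 fold change of -0.93 (SE 0.27, limma adjusted p = 0.371). After quantile normalization it was -0.78 (95% interval -1.29 to -0.27, limma adjusted p = 0.423) and the groups separated, with 6.16, 5.49 and 5.23 in KO against 6.19, 6.52 and 6.51 in WT.

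The other checkpoint genes had smaller differences. Bub1b, which encodes the checkpoint protein BUBR1, read 4.30, 4.60 and 3.998 in KO and 4.44, 4.79 and 4.64 in WT, a log2 fold change of -0.32. Bub1, the kinase that brings checkpoint proteins to the kinetochore, read 6.03, 5.58 and 6.39 in KO and 6.03, 6.56 and 6.44 in WT, a log2 fold change of -0.34. Both had overlapping groups, and after quantile normalization they had -0.10 and -0.19. Bub3, the partner of both, had -0.20, the checkpoint kinase gene Ttk -0.11 and Zwilch, of the complex that recruits dynein to kinetochores, -0.28.

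The APC/C activators, securin and separase were dim on these arrays and had differences under 0.10 as deposited. Cdc20, the APC/C activator that starts anaphase, read 2.93, 2.66 and 2.19 in KO and 2.09, 2.96 and 2.59 in WT, with the arrays of both groups mixed. Its log2 fold change was 0.05 with a 95% interval from -0.52 to 0.62. Fzr1, which encodes the APC/C activator CDH1, had 0.08, the securin gene Pttg1 0.05 and the separase gene Espl1 0.09, and their limma adjusted p ranged from 0.897 to 0.974 with that of Cdc20. After quantile normalization Cdc20 had 0.20, Fzr1 0.13, Pttg1 0.18 and Espl1 0.07. With Foxm1, these 4 were the 5 mitotic genes above 0 as deposited, and each had a mean level under 3. The median of the 10 genes was -0.16 as deposited and 0.00 after quantile normalization.

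All 11 centromere and kinetochore genes had log2 fold changes below 0 as deposited, with a median of -0.38, and none passed. The median was -0.18 after quantile normalization, -0.21 after cyclic loess and -0.24 without KO replicate 3. Cenpk and Cenph, subunits of the inner kinetochore complex that links the centromere to the outer kinetochore, had the widest differences among them. Cenpk read 7.27, 6.34 and 6.74 in Tmod3 KO liver, against 7.76, 7.80 and 7.42 in Tmod3 WT liver, so that every KO array lay below every WT array. Its mean was 6.78 ± 0.47 in KO and 7.66 ± 0.21 in WT (SD, n = 3 each), or 1.83-fold lower, with a log2 fold change of -0.88 (SE 0.23, limma adjusted p = 0.317). After quantile normalization it was -0.79 (95% interval -1.32 to -0.25, limma adjusted p = 0.448), and KO replicate 1 (7.30) then lay just above WT replicate 3 (7.29). Cenph read 4.22, 4.48 and 4.95 in KO and 4.87, 5.48 and 5.09 in WT, with 1 KO array inside the WT range, and had -0.60 (limma adjusted p = 0.466). Cenpi, of the same complex, had -0.21.

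Cenpa, the histone variant that marks the centromere, read 2.58, 3.02 and 2.87 in KO and 3.07, 3.09 and 2.88 in WT. Its log2 fold change was -0.19 (95% interval -0.50 to 0.12), and -0.03 after quantile normalization. Cenpn, which binds centromeric nucleosomes, had -0.44, the kinetochore motor gene Cenpe -0.43 and Cenpf, a large protein of the outer kinetochore, -0.37. For Cenpe and Cenpf the WT arrays themselves spread, with WT replicate 3 at 6.41 and 5.77 against 7.19 and 6.38 in WT replicate 1.

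The 4 genes of the NDC80 complex, which binds spindle microtubules, had estimates between -0.42 and -0.14. Ndc80 read 5.90, 5.33 and 5.06 in KO and 6.14, 5.89 and 5.23 in WT, and its WT replicate 3 lay below 2 KO arrays. Spc25 read 3.63, 4.19 and 3.57 in KO and 4.17, 4.20 and 4.28 in WT, with KO replicate 2 inside the WT range. The log2 fold change was -0.33 for Ndc80 (95% interval -0.96 to 0.30), -0.42 for Spc25 (-0.80 to -0.04), -0.38 for Spc24 (-0.91 to 0.15) and -0.14 for Nuf2 (-0.47 to 0.19). After quantile normalization these were -0.13, -0.17, -0.23 and 0.07, and none of the 4 had an unadjusted p under 0.05.

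The 6 kinesin motor genes all had log2 fold changes below 0 under both scalings, with a median of -0.36 as deposited and -0.22 after quantile normalization, and none passed. Kif4, a chromosome-bound kinesin, read 6.19, 5.60 and 5.26 in Tmod3 KO liver, against 6.22, 6.45 and 6.10 in Tmod3 WT liver. Kif18a, which damps chromosome movement at metaphase, read 6.26, 5.87 and 5.21 in KO, against 6.08, 6.60 and 6.39 in WT. In both, KO replicates 2 and 3 lay below all WT arrays and KO replicate 1 inside their range, and both had a log2 fold change of -0.57 (limma adjusted p = 0.509 for Kif4 and 0.571 for Kif18a). Kif15, which helps to keep the spindle bipolar, read 6.51, 5.72 and 5.80 in KO and 6.42, 6.64 and 6.25 in WT. Kif11, the motor that pushes spindle poles apart, read 6.96, 6.46 and 6.21 in KO and 6.67, 7.05 and 6.81 in WT. KO replicate 1 lay inside the WT range for these 2 genes as well, with log2 fold changes of -0.43 for Kif15 and -0.30 for Kif11. The median of the 6 was -0.59 without KO replicate 1 and -0.24 without KO replicate 3. Kif2c, a microtubule depolymerase of the centromere, had -0.25, and Kif22, which pushes chromosome arms toward the spindle equator, -0.12.

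The 6 spindle assembly genes had a median log2 fold change of -0.30 as deposited and -0.11 after quantile normalization, and none passed. Nusap1, a microtubule-binding protein of the spindle, read 7.43, 6.99 and 6.33 in Tmod3 KO liver, against 7.56, 7.73 and 7.34 in Tmod3 WT liver. Only KO replicate 1 lay inside the WT range, and the log2 fold change was -0.62 (SE 0.25, limma adjusted p = 0.528), or -0.54 after quantile normalization (95% interval -1.10 to 0.01). Tpx2, the activator of Aurora A at the spindle, read 4.95, 4.72 and 4.57 in KO and 4.82, 5.20 and 5.26 in WT. Ckap2, a microtubule-associated protein of the spindle, read 4.26, 3.82 and 4.14 in KO and 4.01, 4.71 and 4.73 in WT. In both, WT replicate 1 lay below at least 1 KO array, and the log2 fold changes were -0.35 for Tpx2 and -0.41 for Ckap2. Tacc3, which stabilises spindle microtubules with Ckap5, read 4.36, 4.37 and 4.42 in KO and 4.51, 4.60 and 4.48 in WT. Its groups separated as deposited with a log2 fold change of -0.15, but the sign turned to 0.10 after quantile normalization. Ckap5 had -0.10 and 0.11 under the 2 scalings, and Hmmr, a spindle pole protein, had -0.26 and -0.09.

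The 2 genes of the mitotic chromosome are both common markers of dividing cells, and neither passed. Mki67, which encodes the proliferation marker Ki-67, read 7.78, 7.83 and 7.50 in Tmod3 KO liver and 8.10, 8.33 and 7.66 in Tmod3 WT liver. Top2a, the topoisomerase that disentangles sister chromatids, read 8.02, 7.84 and 7.97 in KO and 8.16, 8.22 and 7.87 in WT. In both, WT replicate 3 lay among the KO arrays. The log2 fold change was -0.33 (95% interval -0.74 to 0.09) for Mki67 and -0.14 (-0.42 to 0.15) for Top2a. That of Mki67 was -0.51 without WT replicate 3 and -0.18 without WT replicate 2. A second probe set of Top2a was dim, between 1.32 and 1.90 on all arrays, with a difference of 0.10.

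**Figure D3:**
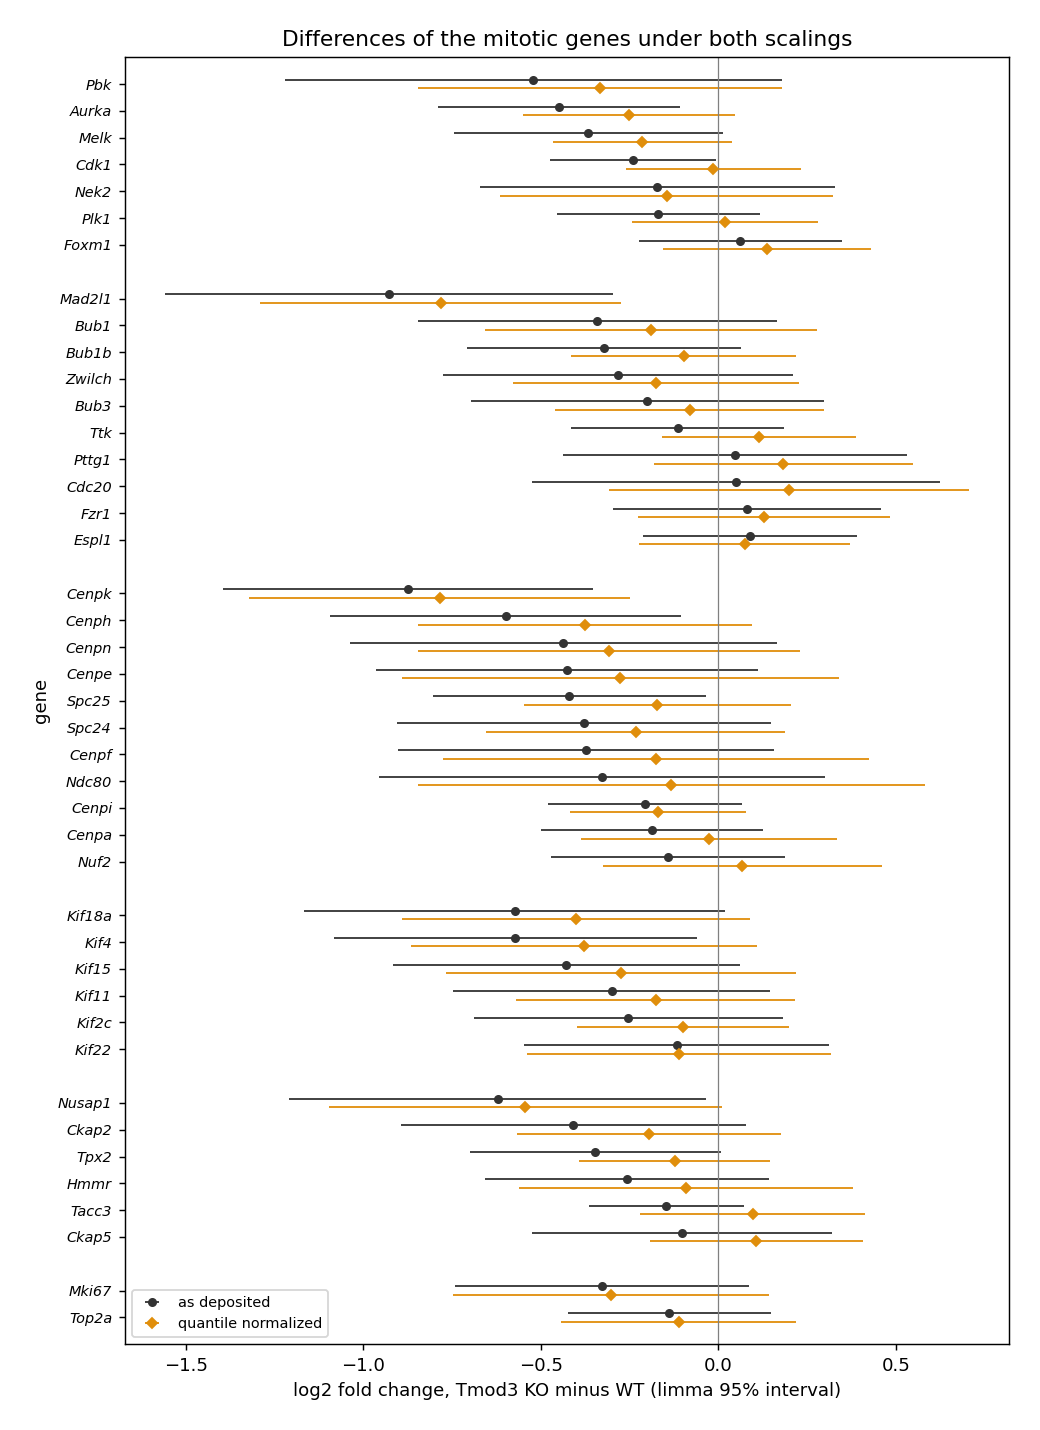
Log2 fold change (Tmod3 KO minus WT) of each of the 42 mitotic genes with its limma 95% interval, as deposited (dark circles) and after quantile normalization (orange diamonds), in the same order as the plot of values by array. The intervals of 8 genes exclude 0 as deposited, and those of Mad2l1 and Cenpk alone exclude it under both scalings.

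Mad2l1 and Cenpk were the 2 genes with an unadjusted p under 0.05 in each of the 16 settings that were run, the deposited values and 15 alternatives. Aurka, Kif4 and Nusap1 reached it in 10 settings, Cenph in 11, Cdk1 and Spc25 in 6, and 15 of the 42 genes in none. All settings draw on the same 6 arrays, and the same tally over all genes was not made. Without 1 array at a time the log2 fold change ranged from -1.21 to -0.68 for Mad2l1 and from -1.12 to -0.65 for Cenpk. Neither passed after adjustment over all genes in any setting, where the lowest limma adjusted p was 0.116 for Mad2l1 and 0.130 for Cenpk. The lowest of any mitotic gene was 0.0595, for Pbk without WT replicate 1.

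**Figure D4:**
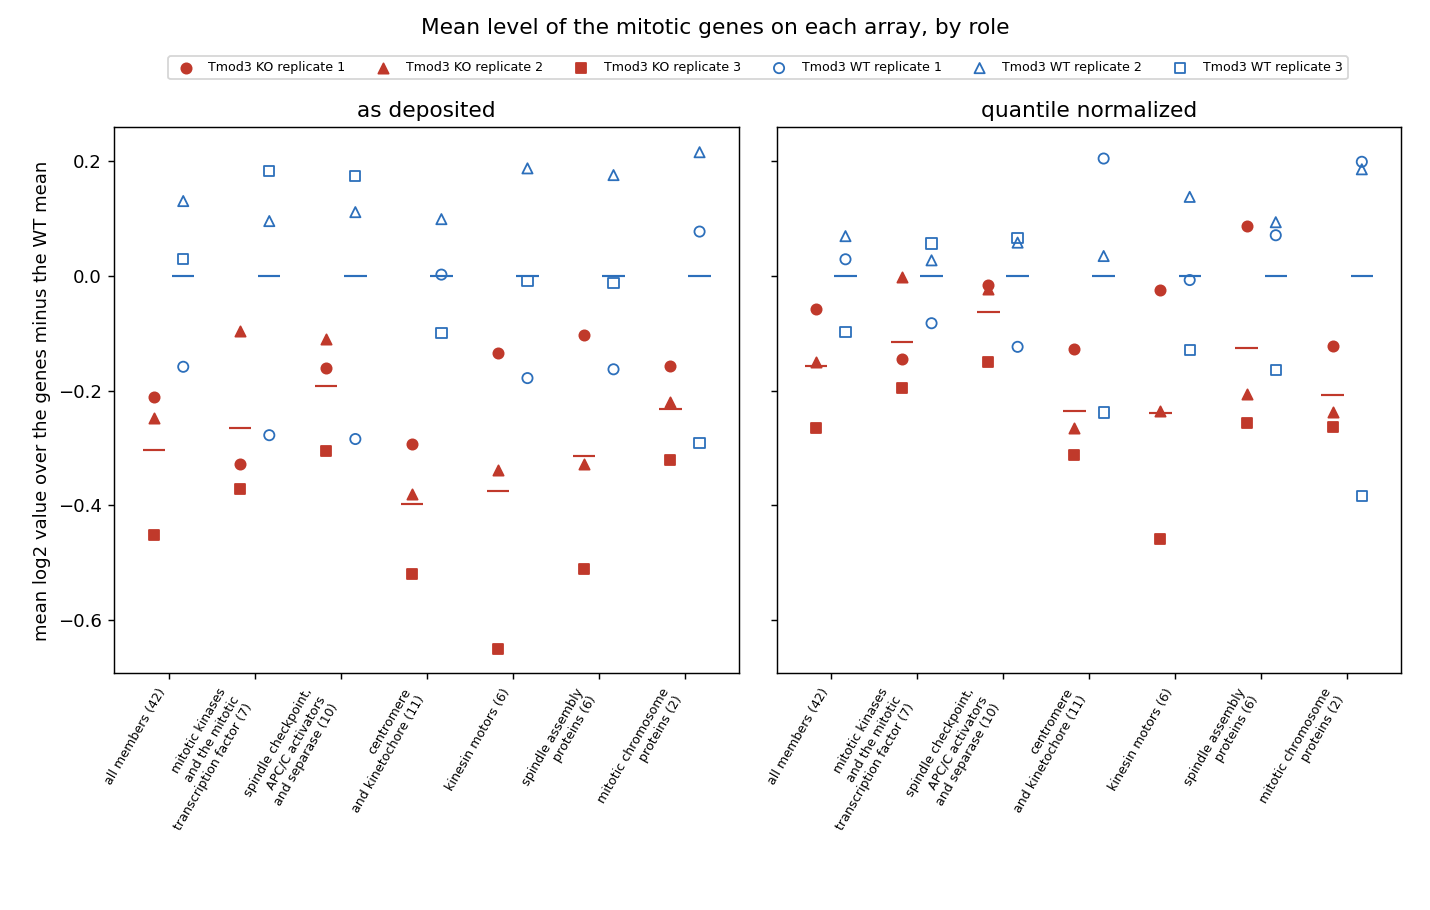
Mean log2 value over the genes of each role on each array, minus the Tmod3 WT mean, as deposited (left) and after quantile normalization (right). Filled red symbols are Tmod3 KO arrays, open blue symbols Tmod3 WT arrays and short lines group means, with the number of genes in brackets. As deposited, the groups do not overlap for all 42 genes or for the centromere and kinetochore genes, while each other role and, after normalization, every set shown overlaps.

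Other genes of the same processes also had more values below 0 than above it. Of 97 further genes written as a list, 92 were measured, 32 (34.8%) were lower at an unadjusted p under 0.05 and 0 higher, and 0 passed over all genes. The share lower at that p was 6.44% of all genes and 26.6% of those averaging 3 or more. Without WT replicate 2 the count was 20, and without WT replicate 3 it was 21, when 3.95% and 4.46% of all genes were lower. After quantile normalization the counts were 21 lower and 3 higher (Lin54, Cdk5rap2 and Incenp), with 4.66% of all genes and 13.2% of those averaging 3 or more lower. The 27 other kinetochore and centromere genes had a median log2 fold change of -0.41, with 13 lower at that p as deposited and 7 after normalization. Among them the inner kinetochore gene Cenpq had -0.82, Cenpc1, which binds the centromeric nucleosome, -0.47, and Dsn1, of the complex that bridges to the outer kinetochore, -0.54. Of 17 other genes of mitotic entry, 8 were lower at that p as deposited and 6 after normalization. They included Mastl, the kinase that restrains the phosphatase opposing Cdk1, with -1.01, the cyclin gene Ccna2 with -0.61 and the Cdk1 partner gene Cks2 with -0.45. Limma adjusted p for these 6 genes lay between 0.213 and 0.392.

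Among 26 other spindle genes, 7 (26.9%) were lower at an unadjusted p under 0.05 as deposited and 6 (23.1%) after quantile normalization. As deposited 6.44% of all genes and 26.6% of those averaging 3 or more were lower at that p. After normalization these shares were 4.66% and 13.2%. The gamma-tubulin gene Tubg1 had -0.78, the kinesin gene Kif14 -0.49 and Haus6, of the augmin complex that branches spindle microtubules, -0.55. Of 18 genes of the APC/C and its partners, 4 (22.2%) were lower at that p as deposited and 2 (11.1%) after normalization. The 4 were Anapc15, a subunit, with -0.43, the inhibitor gene Fbxo5 with -0.46, the subunit gene Cdc27 with -0.48, and the E2 enzyme gene Ube2c with -0.33. The 4 genes of the chromosomal passenger complex, which corrects attachment of kinetochores, had a median of -0.07 and 0 below that p. Its kinase gene Aurkb had -0.17, Birc5 -0.20 and Incenp 0.16 as deposited. After quantile normalization all 4 genes of this complex lay above 0, with a median of 0.14. Of these 4, 1 (Incenp) was then higher at that p, against 3.05% of all genes.

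Values for 2 neighbouring processes are given beside those of the mitotic genes, and the differences between lists were not tested. Of 41 genes of DNA replication, 18 (43.9%) were lower at an unadjusted p under 0.05 as deposited and 14 (34.1%) after quantile normalization. After normalization the mean over the list was 3.42, 3.38 and 3.35 in Tmod3 KO and 3.61, 3.61 and 3.63 in Tmod3 WT replicates 1, 2 and 3, with no overlap. The mean over all genes averaging 3 or more did not overlap either. It was 4.84, 4.81 and 4.81 in KO and 4.86, 4.90 and 4.87 in WT. Of 20 genes of condensin and cohesin, 5 (25%) were lower at that p as deposited and 2 (10%) after normalization. Of genes averaging 3 or more, 26.6% as deposited and 13.2% after normalization were lower at that p. Values below 0 were seen in 40 of the replication genes (97.6%) and 18 of the condensin and cohesin genes (90%) as deposited. The same held for 80.6% of genes averaging 3 or more and 48.4% of all genes. The median log2 fold changes after normalization were -0.20 for replication and -0.19 for condensin and cohesin, against the -0.16 of the 42 mitotic genes. For all genes averaging 3 or more it was -0.06.

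Tmod3 itself read 1.32, 2.36 and 1.30 in KO and 4.49, 4.78 and 4.90 in WT, with every KO array below every WT array. Several markers of liver cell types also differed at an unadjusted p under 0.05, and 0 passed over all genes. Of the 10 erythroblast markers measured, 6 were lower at an unadjusted p under 0.05, and their summed level, with values raised from log2, was 577 to 738 in KO and 831 to 1090 in WT. Of 12 hepatoblast and hepatocyte markers 7 were lower, with sums of 3878, 3970 and 2522 in KO replicates 1, 2 and 3 and 3682, 4509 and 4492 in WT replicates 1, 2 and 3. KO replicate 3, the lowest array for 21 of the 42 mitotic genes, stood apart there, and the other 2 KO arrays lay above WT replicate 1. Of 12 macrophage markers 3 were lower, with sums of 42.1 to 62.1 in KO and 58.1 to 73.4 in WT. After quantile normalization the counts lower were 5 erythroblast, 7 hepatoblast and hepatocyte and 0 macrophage markers. Over all genes 6.44% were lower at that p as deposited and 4.66% after normalization, and of genes averaging 3 or more 26.6% and 13.2%. Early progenitor, endothelial and mesenchymal markers had 1 member each that was higher (Myc, Oit3 and Col1a1) and 0 lower. As deposited 2.59% of all genes and 2.28% of those averaging 3 or more were higher at that p. Of 6 megakaryocyte markers 1 was lower (Ppbp), and of 8 neutrophil markers none. Both main cell types of the tissue were well detected, with the albumin gene Alb at 8.74 to 9.84 in KO and 9.90 to 10.12 in WT and the transferrin receptor gene Tfrc at 7.72 to 8.18 in KO and 8.37 to 8.92 in WT. Mecom, C1qa and Pdgfrb lay below the array median on all arrays. The part of these markers in the values of the mitotic genes was not tested.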

How the data were processed

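Total RNA of 6 fetal livers from independent embryos was hybridised to 1 array each. The deposited values, 1 per probe set and array, were made by the authors with RMA per the submitters' processing notes (version not stated there) and are taken as log2. The sources used here name no base: raised from 2, each array's highest value is 3457 to 6451, below the scanner limit of 65535. Array medians are only 1.36 to 1.43, and the 90th percentile is 3.67 to 3.82 in KO and 3.68 to 4.13 in WT, so the arrays were also quantile normalized. Whether the authors applied a further step after RMA is unknown, and folds and summed levels raised from 2 hold only for these values read as log2. Precision is limited by the number of arrays. Across all probe sets, arrays correlated at 0.980 to 0.981 in KO, 0.978 to 0.990 in WT and 0.974 to 0.983 between groups.

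Of 28853 probe sets, 21789 had 1 gene symbol in the platform annotation, 1621 several, and 5443 are unnamed here. Only the first were used (19938 genes, unfiltered). limma 3.58.1 (R 4.3.3; no trend or covariate) gave two-sided p-values, adjusted over all genes by Benjamini-Hochberg, and was tested on simulated data. Replicate numbers were not used as pairs. Same-numbered samples' deviations correlated at 0.11, 0.06 and -0.11 and differently numbered ones at -0.19 to 0.19, which does not settle whether they are paired. The mitotic genes, other lists and tests were chosen with earlier results of these data known. Values by array are given for 13 genes fixed by name, the 3 of each role with the smallest p, and genes with no overlap; other lists name up to 3 genes by smallest p. Ube2c, Aurkb, Birc5, Incenp, Lin54, Cdk5rap2 and the markers were named after their values were seen. Promoters came from RefSeq on GRCm38.p6.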

Additional observations from a re-analysis of the deposited data

How the results depend on the processing

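Of 15 alternatives, none brought a mitotic gene past an adjusted p of 0.05 (count 0 in each). The number lower at an unadjusted p under 0.05 was 8 as deposited, and 2 after quantile normalization and after cyclic loess. It was 5 when limma was refitted on genes averaging 3 or more alone, and 5 with trend and robust fitting. With array weights, which gave WT replicate 1 the lowest weight, it was 20. The share of all tested genes moved too, from 6.44% as deposited to 4.66% after quantile normalization and 4.63% after cyclic loess. That share was 17.2% in the refit, 4.98% with trend and robust fitting and 9.93% with array weights. Quantile normalization and cyclic loess each gave a median of -0.16 and 1 gene with separate groups. The other genes of the pathway then had 21 lower, with 3 higher after quantile normalization and 2 after cyclic loess. They had 12 lower when genes averaging under 3 were left out and 1 higher with array weights. With the replicate number as a block, 12 of the 42 were lower, against 6.61% of all genes, and 0 passed. Whether the numbers pair the samples was not settled. Leaving out 1 array gave 2 (without WT replicate 2) to 14 genes lower (without WT replicate 1), against 3.95% and 11.2% of all genes. The median was -0.40 to -0.21. Separate groups were seen in 4 to 19 genes, and the share of all genes was not counted for these. Among the other genes of the pathway 20 to 44 were lower and 0 to 1 higher. Without KO replicate 3 the count was 4 of the 42, against 4.79% of all genes. Signs turned for some genes with small differences as deposited. Plk1 had 0.019 and 0.032 and Tacc3 0.10 and 0.10 after quantile normalization and cyclic loess. Ttk, Nuf2 and Ckap5 turned as well, to 0.11, 0.07 and 0.11 after quantile normalization. Cdc20 had -0.13 with array weights and -0.18 to 0.25 without 1 array, and Foxm1 -0.047 to 0.16 without 1 array. The checkpoint, APC/C and separase median was 0.0053 after cyclic loess and -0.32 to 0.0031 without 1 array. The cause of these changes was not tested. Leaving out an array also makes separate groups easier to reach by construction. The 3 arrays a group limit the precision.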

Other observations

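Within the Tmod3 KO group the array that read highest differed with the level of the gene. After quantile normalization, KO replicate 1 was the highest KO array for 20 of the 26 mitotic genes averaging 3 or more, and KO replicate 2 for 12 of the 16 below it. In the Tmod3 WT group, replicate 3 was the lowest WT array for 19 of those 26 genes, and replicate 1 for 12 of the 16. The mean over the 26 genes was 5.64, 5.34 and 5.32 in KO and 5.78, 5.73 and 5.42 in WT replicates 1, 2 and 3, and over the 16 genes 2.21, 2.45 and 2.18 in KO and 2.20, 2.39 and 2.46 in WT. The same counts over all genes were not made. Over all genes averaging 3 or more the normalized means were 4.84, 4.81 and 4.81 in KO and 4.86, 4.90 and 4.87 in WT. Over all genes below 3 they were 1.477, 1.477 and 1.474 in KO and 1.476, 1.484 and 1.490 in WT. The split by level was made after the values were seen.

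Fold changes are given here by promoter element, with no test. The 23 mitotic genes with a TTTGAA match had a median log2 fold change of -0.26, and the 14 without had -0.35. After quantile normalization the medians were -0.11 and -0.20. Mad2l1, with the widest difference as deposited, had neither a TTTGAA nor a CCAAT match in its window, and the windows of Cenpk held CCAAT but no TTTGAA. Over all tested genes the medians were 0.01 with and 0.00 without a TTTGAA match as deposited.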
